A study of Mus musculus with 6 samples.

Results

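Chaperones are proteins that help other proteins to fold. The genes described here encode the heat shock protein families, their J-domain partners, the TRiC chaperonin, the protein disulfide isomerases, the BAG exchange factors and the heat shock transcription factors Hsf1 and Hsf2. They were taken by gene symbol from a table of 24956 genes, of which 97 matched. By the known location of their products, 63 were placed in the cytosol and nucleus, 18 in the endoplasmic reticulum (ER), 8 in mitochondria and 8 elsewhere. A few share only the name, such as Hspb11, a subunit of the ciliary transport machinery.

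The RNA came from mouse intestinal organoids, epithelial cultures grown in organoid medium, of Apc Min genotype, a truncating mutation of the Wnt pathway gene Apc that both groups carried. The 3 control libraries were set against 3 from organoids given DM-aKG, dimethyl α-ketoglutarate, an ester that enters cells. The series calls them biological replicates. Dose, time, vehicle and whether replicates came from separate mice or only separate cultures are not given in the labels, so p-values measure the spread between these libraries. Values are RPKM, reads scaled to gene length and library depth, at an estimated 32700000 to 34200000 reads per library. All 8 epithelial markers were expressed, with sums of 2662 to 2718 RPKM in control and 3483 to 4388 after DM-aKG. The keratins Krt8, Krt18 and Krt19, Cdh1 and Vil1 rose (Krt8 from 831 ± 21.5 to 1519.5 ± 271 RPKM; errors on RPKM values here and below are SDs, n = 3 per group), and Epcam, Cdx1 and Cdx2 fell (Epcam from 421 ± 4.48 to 334 ± 7.12, Cdx2 from 70.3 ± 1.99 to 40.6 ± 8.899). Of 23 markers of fibroblasts and muscle, immune cells and endothelium, 17 stayed below 0.1 RPKM in every library, and Col3a1, Dcn, Lum, Cdh5 and Kdr were listed at 0. The rest reached at most 1.23 RPKM (Itgam). Among them Itgam (means 0.577 and 1.04 RPKM), Pdgfrb (0.123 and 0.527), Pecam1 (0.14 and 0.31) and Csf1r (0.0233 and 0.0833) were higher in all treated libraries. Lyz2 was lower in all of them (0.447 and 0.173), and Plvap overlapped.

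Folding is divided by compartment. In the cytosol, HSP70 takes up unfolded chains with the help of J-domain proteins and lets go of them with the help of exchange factors, HSP90 finishes signalling proteins such as kinases and receptors, and TRiC folds actin and tubulin. HSF1 induces many of these genes under stress. In the ER, BiP (Hspa5), GRP94 (Hsp90b1) and the disulfide isomerases fold secreted and membrane proteins and are induced by the unfolded protein response, and the secretory cells of the gut, such as goblet and Paneth cells, carry a heavy ER load. In mitochondria, mortalin (Hspa9) pulls in and folds imported chains, and HSP60 with HSP10 (Hspd1 and Hspe1) forms a folding chamber.

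ER chaperone transcripts were mostly lower after DM-aKG. Those of the cytosol and nucleus moved both ways, and the mitochondrial ones that passed the test rose. Genes were tested when their mean over all 6 libraries reached 1 RPKM, which 74 of the 97 did. Changes are differences on the log2(RPKM + 0.5) scale with their SE, and a gene is said to rise or fall when its limma adjusted p over all 10852 tested genes was under 0.05. Among the 74, 21 rose and 19 fell. That is 54.1%, next to 55.6% of all tested genes (30.9% higher and 24.7% lower), so the chaperones as a whole changed about as often as other genes. Of 17 tested ER genes, 11 fell (64.7%) and 1 rose, with a median change of -0.25. Of 43 in the cytosol and nucleus, 15 rose (34.9%) and 7 fell (16.3%), with a median of 0.05. Of 8 in mitochondria, 3 rose and limma called 0 lower (1 with an unadjusted p under 0.05), with a median of 0.05. The median over all tested genes was 0.02. The 2 groups of libraries did not overlap for 24 members that were higher and 26 that were lower, where the shares over all tested genes were 35.3% and 28.9% (64.2% together). Centring each library on its median gene changed the calls among members to 12 higher and 26 lower, with 12 lower in the ER. Without control replicate 3, 12 members were higher.

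**Figure D1:**
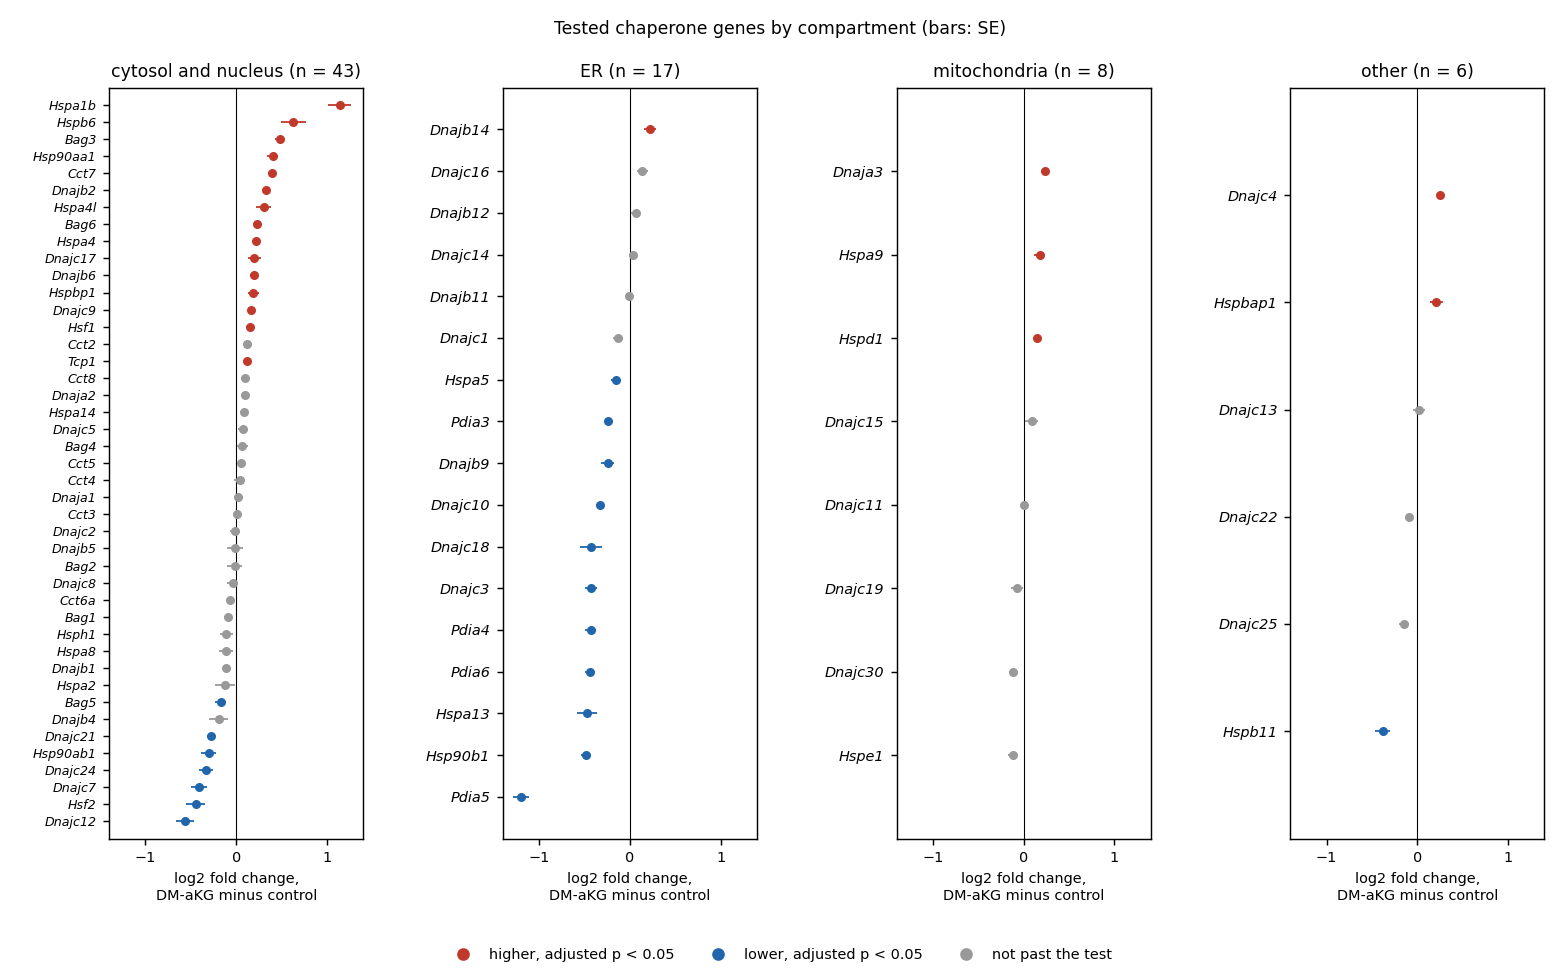
Log2 fold change (x axis, DM-aKG minus control, bars SE) of each of the 74 tested genes (y axis), in a panel for each compartment; red and blue mark genes past the test. ER genes lie mostly left of 0, down to Pdia5 at -1.20, while those of the cytosol and nucleus spread from Dnajc12 at -0.56 to Hspa1b at 1.14.

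In the ER the fall took in GRP94, BiP and every tested disulfide isomerase of the set. 4 of these ER genes, Dnajc3 among them, carry the ER stress element, the promoter motif through which ATF6 and XBP1 induce ER chaperones, spelled CCAAT, then any 9 bases, then CCACG, and searched on both strands of RefSeq promoters (GRCm38.p6, 250 bases before to 50 after each start site). Among the members it was found for 4 of 16 ER genes with a promoter entry, Hspa5, Hsp90b1, Pdia6 and Dnajc3, and for 0 of the others. Of all 32851 promoters 0.119% held it. The stretches below are shown because they carry it, in capitals, 5′ to 3′ in the direction of the gene. They are bases before the start site outside annotated exons, and for Hspa5 the motif with 5 bases on each side.
Hspa5, chr2:34772020-34772048, plus strand: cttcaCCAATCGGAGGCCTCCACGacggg
Hsp90b1, chr10:86705510-86705694, minus strand: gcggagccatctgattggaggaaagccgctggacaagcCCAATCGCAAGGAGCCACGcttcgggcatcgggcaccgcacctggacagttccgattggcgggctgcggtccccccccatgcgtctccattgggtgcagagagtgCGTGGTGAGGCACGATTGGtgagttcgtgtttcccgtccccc
Pdia6, chr12:17266339-17266544, plus strand: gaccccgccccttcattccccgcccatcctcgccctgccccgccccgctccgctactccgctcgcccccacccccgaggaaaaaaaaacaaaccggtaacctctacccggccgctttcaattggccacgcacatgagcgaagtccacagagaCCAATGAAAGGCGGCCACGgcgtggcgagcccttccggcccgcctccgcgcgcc
Dnajc3, chr14:118937682-118937931, plus strand: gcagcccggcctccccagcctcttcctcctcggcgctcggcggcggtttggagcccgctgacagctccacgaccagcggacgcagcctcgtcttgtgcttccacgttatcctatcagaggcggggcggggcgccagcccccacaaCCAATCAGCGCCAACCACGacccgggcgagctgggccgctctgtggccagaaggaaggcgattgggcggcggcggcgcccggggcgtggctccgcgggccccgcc
The motif began 65 bases before the RefSeq start site in Hspa5, 98 in Pdia6 and 105 in Dnajc3. Hsp90b1 held it once on each strand, from 212 and 107 bases before the start. A shorter form, ATTGG, any base, CCACG, was found among members only for Dnajb11, and in 0.0365% of all promoters. Outside the members, 7 tested genes held the ER stress element, of which 2 rose, 2 fell and 3 did not pass, with a median of 0.03. Those that fell were Calr and Canx (-0.31 and -0.20), both on the list of other ER folding genes described below. Creld2, also on that list, did not pass (-0.09), nor did Hnrnpa3 and Syvn1 (0.13 and 0.03). Alg12 and Pan2, which are not on it, rose (0.24 and 0.18). Over all tested genes 30.9% rose and 24.7% fell. Binding was not measured here, and whether the motif bears on the ER fall was not tested.

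Hsp90b1, which encodes the HSP90 of the ER, stood at 251, 239.7 and 241 RPKM in the controls and at 185, 173 and 165 after DM-aKG. Every treated library lay well under every control, and it fell by 0.49 ± 0.05 (adjusted p = 2.33e-04, limma). Hspa5, which encodes BiP, stood at 267, 246 and 253 RPKM in the controls and at 224, 239.9 and 225 after DM-aKG. The groups were separate but close, and it fell by 0.15 ± 0.05 (adjusted p = 0.0315, limma). In each library Hspa5 was 1.03 to 1.06 times the level of Hsp90b1 in control and 1.21 to 1.39 times after treatment. Hspa13, an HSP70-like protein of the ER, had 9.11, 7.61 and 7.84 RPKM in the controls and 6.62, 4.92 and 5.76 after DM-aKG, and it fell by 0.48 ± 0.11.

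The disulfide isomerases form and reshuffle disulfide bonds, and all 4 that could be tested fell. Pdia5 changed most of all tested members: its 3 control libraries had 10.9, 10.9 and 11.2 RPKM and its treated ones 5.09, 4.66 and 3.88, and it fell by 1.20 ± 0.09 (adjusted p = 4.28e-05, limma). Pdia6 had 95.02, 91.9 and 90.3 RPKM in the controls and 64.4, 69.4 and 69.6 after DM-aKG, and fell by 0.44 ± 0.05 (adjusted p = 1.92e-04, limma). For Pdia4 the values were 58.9, 55.2 and 56.98 RPKM and, after treatment, 45.9, 40.6 and 39.9, and it fell by 0.43 ± 0.06. Pdia3, or ERp57, works on glycoproteins with calnexin and calreticulin. It had 191, 188 and 189 RPKM in the controls and 164, 163 and 155 after DM-aKG, and fell by 0.24 ± 0.04. Treated and control libraries did not overlap for any of these 4 genes. Pdia2 lay below the filter at 0.51 to 0.91 RPKM.

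Of the 10 ER J-domain genes, 4 fell and 1 rose. Dnajc3 (P58IPK), a BiP cochaperone, had 24.5, 22.1 and 22.5 RPKM in the controls and 18.6, 16.4 and 15.9 after DM-aKG, and fell by 0.43 ± 0.07 (adjusted p = 0.00147, limma). Dnajc10 (ERdj5), a reductase that opens disulfides, fell from 20.2 ± 0.287 to 15.9 ± 0.31 RPKM (adjusted p = 3.47e-04, limma). Dnajb9 (ERdj4), which brings BiP to the stress sensor IRE1, had 16.2, 13.4 and 14.3 RPKM in the controls and 12.1, 12.8 and 11.8 after DM-aKG, and fell by 0.25 ± 0.07. Dnajb11 (ERdj3), another BiP cochaperone, had 23.4, 24.1 and 23.3 RPKM in the controls and 24.02, 23.8 and 22.3 after treatment, with overlapping groups and a change of -0.01. The BiP cochaperones were thus not uniform. Dnajc18 fell from 1.93 ± 0.105 to 1.32 ± 0.282 RPKM. Dnajb14, a membrane protein, was the single ER gene to rise, with 7.63, 8.25 and 7.23 RPKM in the controls and 8.55, 9.03 and 9.67 after DM-aKG (adjusted p = 0.0211, limma). Its relative Dnajb12 and Dnajc1, Dnajc14 and Dnajc16 did not pass, with changes of 0.06, -0.13, 0.03 and 0.14.

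Some ER calls were near the threshold and were lost with fewer libraries, with changes in the same direction. That of Hspa5 was lost without control replicate 1 or 3 or DM-aKG replicate 3 (changes -0.16 to -0.12; adjusted p 0.0861 to 0.111, limma), with the replicate number as a block (0.0696) and with no filter (0.0545). That of Dnajb9 was lost without DM-aKG replicate 3 (-0.22; 0.0642). That of Dnajc18 was lost without control replicate 2 or 3 or DM-aKG replicate 2 or 3 (-0.43 to -0.34; 0.0545 to 0.0585). That of Dnajb14 was lost without control replicate 1 or 3 or DM-aKG replicate 2 or 3 (0.18 to 0.23; 0.05703 to 0.0827) and on median centring or quantile normalization (0.0505 and 0.0529).

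Other ER folding genes, from a list of 18 symbols of which 16 were in the table and tested, fell in 9 cases and rose in 1, with a median of -0.17. P4hb, the classical disulfide isomerase, fell from 605 ± 8.26 to 442 ± 10.04 RPKM (adjusted p = 1.34e-04, limma). Ppib, a proline isomerase, fell from 172 ± 4.18 to 123 ± 3.63 RPKM. Txndc5, a further thioredoxin-fold isomerase, fell from 66.97 ± 1.01 to 44.5 ± 2.31 RPKM. Sdf2l1, a partner of BiP, fell from 21.2 ± 0.386 to 13.8 ± 1.403 RPKM. Manf, which also binds BiP, fell from 37.5 ± 1.38 to 28.5 ± 1.31 RPKM, and Sec63, the J-domain subunit of the translocon, fell from 24.3 ± 0.874 to 19.4 ± 1.46. The gene that rose was Ero1l, the oxidase that recharges the disulfide isomerases and a known hypoxia target, at 182 ± 32.1 RPKM in control and 277 ± 62.3 in treated libraries, with overlapping groups (adjusted p = 0.0248, limma). The nucleotide exchange factors of BiP, Hyou1 and Sil1, did not pass, with changes of 0.00 and 0.02.

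Most markers of secretory gut cells fell too, and by more. Of 12 goblet markers 10 fell (median change -1.45), and their summed level was 2117 to 2276 RPKM in control libraries and 713 to 1011 in treated ones. Of 11 Paneth markers 8 were tested, 6 fell and 1 rose, Pla2g2a (median change -1.33), with sums of 2236 to 2923 and 722 to 1697 RPKM, and Mptx2 stayed at or below 0.09 RPKM. The 18 ER chaperones summed to 1000.1 ± 25.7 RPKM in control and 817 ± 21.6 after DM-aKG, a change of -18.3%. In DM-aKG replicate 1 the goblet sum was 1011 RPKM against 721 and 713 in replicates 2 and 3. The Paneth sum was 1697 RPKM there against 749 and 722, and the ER sum 829 against 829 and 792. Of the 11 ER genes that fell, replicate 1 was the highest treated library in 8, replicate 2 in 2 and replicate 3 in 1. The same count was not made over all genes that fell. In bulk RNA, fewer secretory cells and less chaperone RNA per cell cannot be told apart, and the part of these cells in the ER result was not tested.

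**Figure D2:**
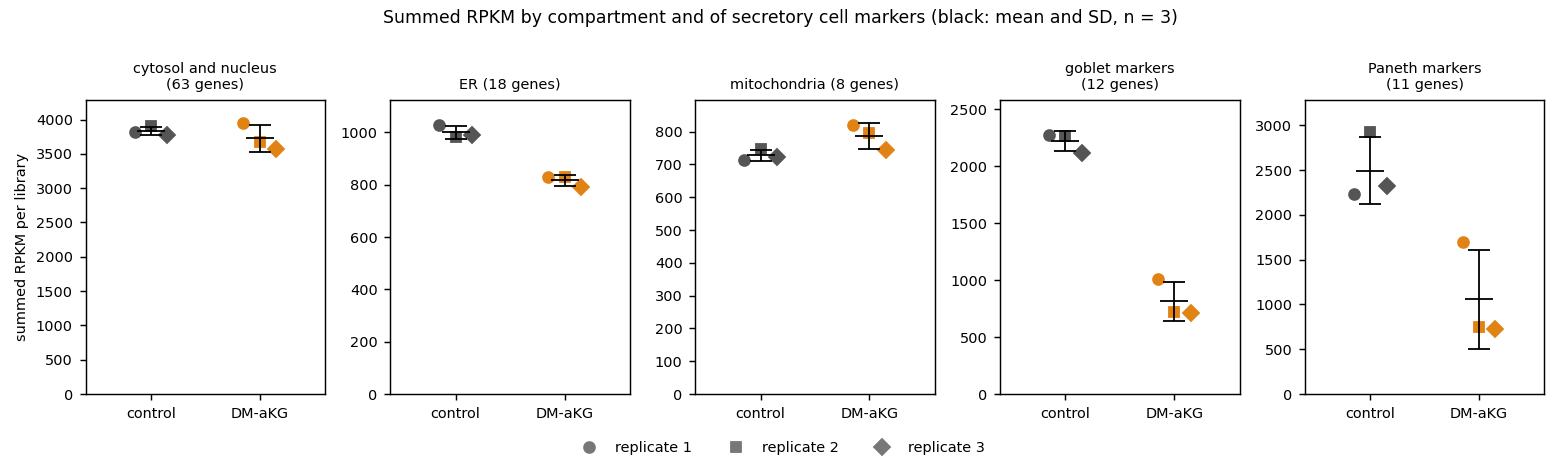
Summed RPKM per library (y axis, from 0) of the members in 3 compartments and of goblet and Paneth markers; points are libraries, black bars the mean and SD. The DM-aKG libraries lie under all controls for the ER (792 to 829 against 982 to 1029 RPKM) and for both marker lists, and overlap the controls for the cytosol and nucleus and for mitochondria.

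In the cytosol the HSP90 pair moved in opposite directions. Hsp90aa1, the stress-inducible HSP90α, had 167, 166 and 162 RPKM in the controls and 200.5, 231 and 225 after DM-aKG. All treated libraries were above all controls, and it rose by 0.40 ± 0.06 (adjusted p = 8.99e-04, limma). Hsp90ab1, the constitutive HSP90β, had 883, 973 and 897 RPKM in the controls and 842, 706 and 692 after DM-aKG, and fell by 0.30 ± 0.08 (adjusted p = 0.0165, limma). Of the treated libraries, replicate 1 lay nearest the controls for both genes. The ratio of Hsp90ab1 to Hsp90aa1 was 5.56 ± 0.299 in control and 3.45 ± 0.652 after treatment, and their sum 1083 ± 48.3 and 965 ± 67.4 RPKM. The call of Hsp90ab1 was lost without control replicate 2 or DM-aKG replicate 2 or 3 (0.0539 to 0.06405), with no filter (0.0559) and on quantile normalization, where its change was -0.12 (0.197). The coding sequences of the pair were 76.6% identical.

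Among the cytosolic HSP70 genes, a scarce inducible one rose and the abundant constitutive one overlapped between the groups. Hspa8 (HSC70), the most abundant member, had 1070.4, 1021 and 1045 RPKM in the controls and 1099, 922 and 892 after DM-aKG. The groups overlapped through DM-aKG replicate 1, and the change of -0.11 ± 0.08 did not pass (adjusted p = 0.274, limma). Without that library it passed, with a change of -0.20 (adjusted p = 0.00313, limma). Hspa1b, a heat-inducible HSP70, had 3.2, 2.38 and 3.49 RPKM in the controls and 6.52, 7.73 and 7.39 after DM-aKG. It rose by 1.14 ± 0.12 (adjusted p = 2.37e-04, limma), the largest rise among tested members, or roughly 225 to 320 reads per control library and 625 to 712 per treated one. Its neighbour Hspa1a had 0.89, 0.62 and 0.23 RPKM in the controls and 1, 1.37 and 1.83 after DM-aKG, with a mean just under the filter. Without the filter its change was 0.84 ± 0.27 (adjusted p = 0.0527, limma). The coding sequences of Hspa1a and Hspa1b differ at 8 of 1926 aligned bases (99.6% identity), so how reads were divided between them is uncertain. Hspa14 and the testis-enriched Hspa2 did not pass (0.08 and -0.13). Hspa1l (0.83 to 1.18 RPKM), Hspa12a and Hspa12b (both at most 0.07) were below the filter.

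Of the 10 HSP70 exchange factor genes, 5 rose and 1 fell. Bag3, which joins HSP70 to small heat shock proteins and to autophagy, had 14.2, 12.5 and 13.9 RPKM in the controls and 18.4, 19.01 and 19.6 after DM-aKG, and rose by 0.48 ± 0.06 (adjusted p = 3.64e-04, limma). Bag6, which guards tail-anchored membrane proteins, rose from 39.2 ± 0.7999 to 46.1 ± 2.32 RPKM. Of the HSP110 class, Hspa4 rose from 68.3 ± 0.867 to 79.5 ± 3.61 RPKM and Hspa4l rose from 17.2 ± 1.24 to 21.4 ± 2.16. Hsph1, the heat-inducible member of that class, had 17.9, 16.4 and 16.97 RPKM in the controls and 17.4, 15.7 and 14.4 after DM-aKG, with overlapping groups (-0.11). It passed without DM-aKG replicate 1, with a change of -0.17 (adjusted p = 0.0262, limma). Hspbp1 rose by 0.19 ± 0.06 and Bag5 fell by 0.17 ± 0.06. Bag1, Bag2 and Bag4 did not pass (-0.09, -0.02 and 0.07). The call of Hspbp1 was lost in 8 of 15 alternatives, among them leaving out any control library or DM-aKG replicate 1 or 3 (0.0519 to 0.112). That of Bag5 was lost in 8, among them leaving out control replicate 1 or 3 or any treated library (0.0671 to 0.142), and that of Hspa4l without control replicate 3 (0.0564).

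The cytosolic and nuclear J-domain genes, which steer HSP70 to its clients, went both ways: of 16 tested, 4 rose and 4 fell. Dnajc12, a cochaperone of aromatic amino acid hydroxylases, had 2.81, 2.57 and 3.24 RPKM in the controls and 1.86, 1.85 and 1.62 after DM-aKG, and fell by 0.56 ± 0.09 (adjusted p = 0.00179, limma). Dnajc7, which binds HSP70 and HSP90, had 53.05, 53.4 and 53.7 RPKM in the controls and 47.3, 37.2 and 36.5 after DM-aKG, again with replicate 1 nearest the controls. Dnajc24, of diphthamide synthesis, had 5.7, 5.66 and 5.91 RPKM and, after treatment, 5, 4.47 and 3.96, and Dnajc21, of ribosome maturation, fell from 16.2 ± 0.483 to 13.3 ± 0.428. The genes that rose were Dnajb2, Dnajb6, Dnajc9 and Dnajc17. Dnajb2 rose from 7.14 ± 0.176 to 9.08 ± 0.197 RPKM (adjusted p = 7.82e-04, limma), and Dnajb6, a suppressor of aggregation, rose from 12.9 ± 0.318 to 14.9 ± 0.476. Dnajc9, a histone cochaperone, rose by 0.17 ± 0.04 and Dnajc17 rose by 0.20 ± 0.07. The heat-inducible Dnajb1 (HSP40) had 11.2, 10.9 and 11.5 RPKM in the controls and 10.2, 10.5 and 10.2 after DM-aKG, lower in each treated library and just short of the threshold (adjusted p = 0.05002, limma). It passed in 6 of the 15 alternatives. Dnaja1, at 38.2, 35.9 and 38.6 RPKM in the controls and 37.96, 38.97 and 37.1 after DM-aKG, did not pass, nor did Dnaja2, Dnajb4, Dnajb5, Dnajc2, Dnajc5 and Dnajc8. The call of Dnajc9 was lost on both rescalings (0.0537 and 0.103). That of Dnajc17 was lost in 9, among them leaving out control replicate 2 or 3 or any treated library (0.0766 to 0.137).

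The chaperonin genes changed little apart from Cct7. The 8 tested subunit genes of TRiC lay between 78.6 and 209 RPKM over all libraries. Cct7 had 82.5, 84.1 and 78.6 RPKM in the controls and 104, 111 and 107 after DM-aKG, and rose by 0.39 ± 0.04 (adjusted p = 3.04e-04, limma). Tcp1 had 153, 158 and 149.8 RPKM in the controls and 169, 168 and 162 after DM-aKG, and rose by 0.11 ± 0.04 (adjusted p = 0.0434, limma). The call of Tcp1 was lost in 9 alternatives, among them leaving out any control library or DM-aKG replicate 2 or 3 (0.05004 to 0.166); on median centring its change was 0.07. The other 6, Cct2, Cct3, Cct4, Cct5, Cct6a and Cct8, had changes from -0.06 to 0.12 and did not pass. Cct6b, a testis form, stayed at 0.03 to 0.14 RPKM. Exons of Cct7 overlap Pradc1 on the opposite strand, and whether counting used strand is not given.

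Small heat shock proteins, which hold unfolded chains without ATP, were scarce. Of 7 genes, Hspb6 (HSP20) alone passed the filter, with 3.74, 4.42 and 3.16 RPKM in the controls and 4.94, 6.6 and 6.84 after DM-aKG. The groups were separate, and it rose by 0.63 ± 0.14 (adjusted p = 0.00659, limma). Its exons overlap Gm38670 on the same strand and Lin37 and Proser3 on the opposite strand. Hspb1 (HSP25) had 0.07, 0.13 and 0.07 RPKM in the controls and 0.19, 0.40 and 0.64 after DM-aKG, or about 2 to 4 and 6 to 19 reads. Tested without the filter its change was 0.60 ± 0.17 (adjusted p = 0.0392, limma). Hspb8, the partner of Bag3, had 0.02, 0.03 and 0.00 RPKM in the controls and was listed at 0 in the 3 treated libraries. Hspb9 had at most 0.12 RPKM, and Hspb2, Hspb3 and Hspb7 were listed at 0 in every library.

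The heat shock factors diverged. Hsf1, the main regulator of the heat shock response, had 10.4, 10.6 and 10.5 RPKM in the controls and 11.3, 12.2 and 11.5 after DM-aKG, and rose by 0.15 ± 0.04 (adjusted p = 0.0244, limma). Hsf2 had 3.52, 3.6 and 3.49 RPKM in the controls and 3, 2.29 and 2.16 after DM-aKG, and fell by 0.45 ± 0.11 (adjusted p = 0.00833, limma). All treated libraries lay above the controls for Hsf1 and below them for Hsf2. The call of Hsf1 was lost without any single control library or DM-aKG replicate 2 or 3 (0.0509 to 0.0908), and on both rescalings (0.108 and 0.118).

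**Figure D3:**
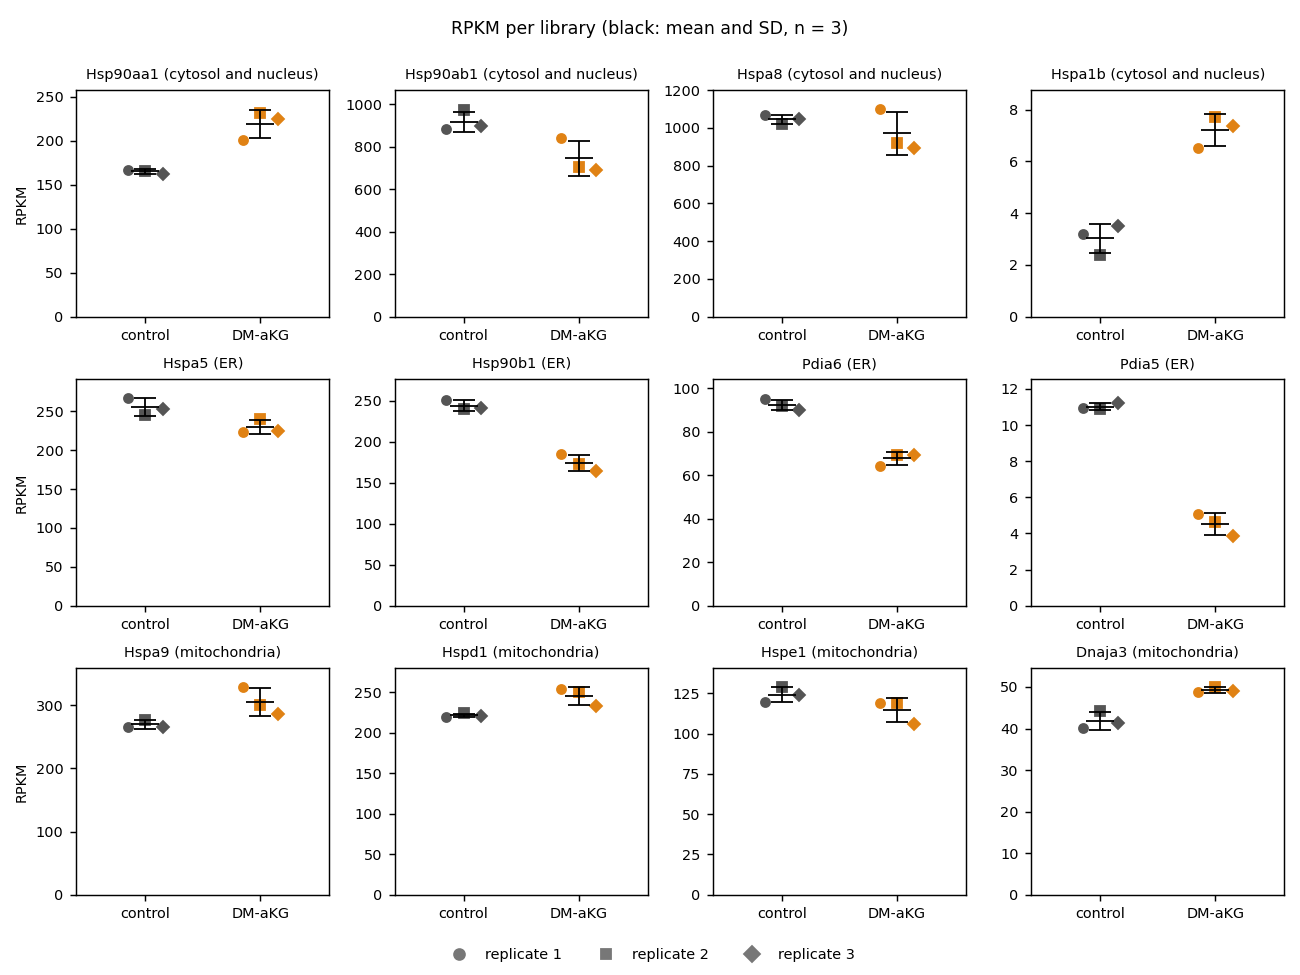
RPKM per library (y axis, from 0) of 12 members by group, with a marker shape for each replicate and black bars for mean and SD (n = 3). Hsp90aa1 and Hspa1b are higher, and Hsp90ab1, Hspa5, Hsp90b1, Pdia6 and Pdia5 lower, in all treated libraries than in any control, while Hspa8 overlaps.

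Cytosolic cochaperones outside these families were mixed. Of 14 partners of HSP90 and HSP70, 5 rose and 2 fell, with a median of 0.08. Fkbp5, an HSP90 immunophilin known as a glucocorticoid target, rose from 15.2 ± 2.03 to 37.6 ± 5.84 RPKM (adjusted p = 1.74e-04, limma), and the myosin chaperone gene Unc45a rose from 9.02 ± 0.0896 to 11.97 ± 0.8495. Ppid, Ptges3 and Ahsa1 were the others that rose, and Fkbp4 and Cdc37 the pair that fell, all by smaller amounts. Of 6 prefoldin genes, whose products hand actin and tubulin to TRiC, 2 rose (Pfdn1 and Pfdn4) and 1 fell (Pfdn5).

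Mitochondrial members changed little. Hspa9 (mortalin) had 265, 277 and 266 RPKM in the controls and 328, 300.3 and 286 after DM-aKG, and rose by 0.18 ± 0.06 (adjusted p = 0.0322, limma). Hspd1 (HSP60) had 219.7, 224 and 221 RPKM in the controls and 254, 251 and 233 after DM-aKG, and rose by 0.15 ± 0.05 (adjusted p = 0.0246, limma). Its partner Hspe1 (HSP10) had 119.38, 129.02 and 124.11 RPKM in the controls and 119.04, 119.09 and 106.25 after DM-aKG. All treated values were lower, the nearest by a narrow margin, and the change of -0.11 ± 0.06 did not pass (adjusted p = 0.124, limma). In each library Hspd1 was 1.74 to 1.84 times the level of Hspe1 in control and 2.11 to 2.198 times after treatment. With Hspd1 higher and Hspe1 lower in every treated library, this ratio could not overlap between the groups. It adds nothing to the values of the 2 genes. Dnaja3 (Tid1), the J-domain partner of mortalin, had 40.02, 44.2 and 41.3 RPKM in the controls and 48.7, 49.97 and 49.1 after DM-aKG, and rose by 0.23 ± 0.05 (adjusted p = 0.00384, limma). Exons of Dnaja3 overlap Vasn on the same strand and Coro7 on the opposite strand. Dnajc19, of the import motor, and Dnajc15, Dnajc11 and Dnajc30 did not pass (-0.07, 0.09, 0.01 and -0.11).

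The call of Hspa9 was lost without control replicate 1 or 3 or DM-aKG replicate 2 (0.0692 to 0.108, adjusted p, limma) and with no filter (0.0635). That of Hspd1 was lost without any single control library or DM-aKG replicate 2 (0.0511 to 0.0868). Without control replicate 1 or 3 or DM-aKG replicate 2, 1 mitochondrial gene was higher. On median centring neither Hspa9 nor Hspd1 was called (0.0923 and 0.103), and 1 mitochondrial gene was higher and 2 were lower.

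Hspd1 and Hspe1 lie head to head on chromosome 1 of GRCm38 (Hspd1 at 55077835 to 55088243, minus strand, and Hspe1 at 55088132 to 55091307, plus strand), with exons that overlap by annotation. The bases between their RefSeq start sites held the heat shock element, searched on both strands as GAA, TTC and GAA with 2 bases between neighbours. Overlapping copies on opposite strands are shown in capitals with 5 bases on each side.
Hspd1, chr1:55088054-55088081, minus strand: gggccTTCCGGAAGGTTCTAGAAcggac
The element was also found for Dnajb6 and Hsph1 and for no other of the 80 members with a promoter entry, and in 0.603% of all promoters. Of the 4 members with this spelling, Dnajb6 and Hspd1 rose and Hspe1 and Hsph1 did not pass. Outside the members, 46 tested genes held it, of which 15 rose, 10 fell and 21 did not pass, with a median of 0.02. Over all tested genes 30.9% rose and 24.7% fell. Whether the element bears on these changes was not tested.

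Of 10 further mitochondrial folding and protease genes, 3 rose and 2 fell, with a median of 0.06. Afg3l2, of the inner membrane protease, rose from 41.7 ± 1.45 to 53.9 ± 3.81 RPKM, and Clpx, of the matrix protease, rose from 14.1 ± 0.545 to 17.8 ± 1.22. Lonp1 also rose, and Grpel2 and Hscb fell, by smaller amounts. Trap1, the mitochondrial HSP90, was at 49.4 ± 1.59 and 52.8 ± 1.83 RPKM and did not pass (adjusted p = 0.0983, limma).

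Of the 8 members placed elsewhere, 6 were tested. Hspb11 (IFT25) had 7.29, 7.56 and 6.96 RPKM in the controls and 6.01, 5.63 and 4.8 after DM-aKG, and fell by 0.38 ± 0.08 (adjusted p = 0.00512, limma). Dnajc4 had 8.48, 8.07 and 8.05 RPKM in the controls and 9.61, 9.74 and 10.3 after DM-aKG, and rose by 0.25 ± 0.05. Hspbap1, named for binding a small heat shock protein, had 1.95, 2.19 and 2.08 RPKM in the controls and 2.48, 2.49 and 2.45 after DM-aKG, and rose by 0.21 ± 0.07. That call was lost without control replicate 1 or 3 or DM-aKG replicate 2 or 3 (0.0811 to 0.111). Dnajc13, Dnajc22 and Dnajc25 did not pass (0.02, -0.09 and -0.15). Dnajc28 (at most 1.17 RPKM) and Cct8l1 (at most 0.03) were below the filter.

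The 23 members below the filter were Pdia2, Dnajc28, Cct8l1 and 20 of the cytosol and nucleus, and none exceeded 1.83 RPKM in any library. Besides those given above they were Dnaja4, Dnajb3, Dnajb7, Dnajb8, Dnajb13, Dnajc6 and Dnajc27, at up to 0.94 RPKM, and Dnajc5b and Dnajc5g, listed at 0. Dnaja4 had 0.12, 0.09 and 0.14 RPKM in the controls and 0.24, 0.23 and 0.19 after DM-aKG, and tested without the filter its change was 0.22 ± 0.05 (adjusted p = 0.0115, limma).

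Per unit of gene length, cytosolic transcripts made up most of the chaperone RNA. Hspa8 (1008 RPKM over the 6 libraries) and Hsp90ab1 (832) led, followed by Hspa9 (287), Hspa5 (243), Hspd1 (234) and Hsp90b1 (209). The order changed with treatment: Hsp90b1 was above Hsp90aa1 in all 3 controls and below it in all 3 treated libraries. The members made up 1.52% to 1.53% of the RPKM sum in control and 1.45% to 1.58% after DM-aKG. The mitochondrial sum was 728 ± 16.7 RPKM in control and 787 ± 38.5 after treatment, and that of the cytosol and nucleus 3835 ± 61.3 and 3729 ± 198, both with overlapping groups.

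The DM-aKG libraries were not alike for these genes. Of the 40 members that rose or fell, replicate 1 was the treated library nearest the control mean in 28, replicate 2 in 3 and replicate 3 in 9. Replicate 1 was also furthest from its group median for 32 of 74 members, and control replicate 2 for 31, more than any other library of their groups. These counts were not made over all tested genes. Whether the differences between libraries are particular to the chaperones was therefore not tested. Some members passed the test after a single library was left out: Dnajc5, Dnajc16 and Dnajc25 without DM-aKG replicate 1 (adjusted p = 0.03103, 0.0186 and 0.0161, limma), Dnajb4 without control replicate 1 (0.0491) and Dnajc30 without control replicate 2 (0.0424). Without both DM-aKG replicate 1 and control replicate 2, 25 members were higher and 25 lower of 76 tested, with 11 ER genes lower and 2 higher, and all genes gave 3721 higher and 3270 lower of 10837.

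**Figure D4:**
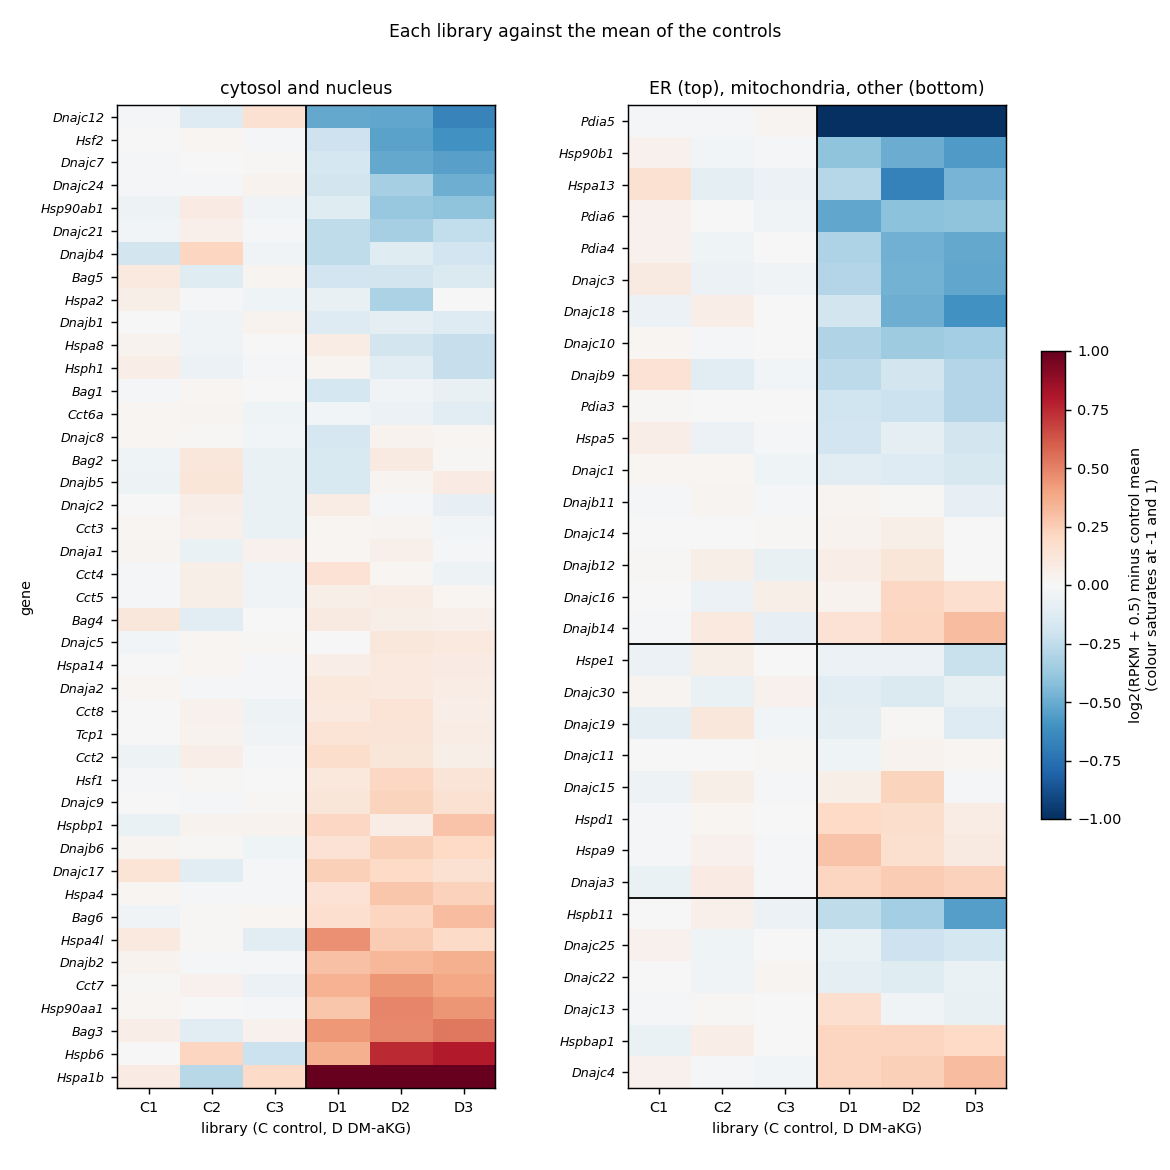
Log2(RPKM + 0.5) of the 74 tested members (rows) in each library (columns) minus the mean of the controls; red is higher, blue lower, and colour saturates at -1 and 1. The ER block at the upper right is mostly blue in all 3 DM-aKG libraries, and DM-aKG replicate 1 (D1) is paler than D2 and D3 for Hsp90ab1, Dnajc7 and Hsf2.

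On GRCm38 Hsp90b1 lies on chromosome 10 (86690209 to 86705509, minus strand), Pdia5 on chromosome 16 (35397312 to 35490873, minus strand) and Hsp90aa1 on chromosome 12 (110690605 to 110702728, minus strand). Hspa1b (34956436 to 34959238) and Hspa1a (34969190 to 34972156) are neighbours on the minus strand of chromosome 17, which also holds Hsp90ab1 (45567775 to 45573271, minus strand). Exons of 27 of the 97 members overlap those of another gene in the table, among them Hsp90b1, Pdia3, Pdia6 and Dnajc7, each with a gene on the opposite strand. How such reads were assigned is not given.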

How the data were processed

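6 libraries were measured by RNA-seq. RPKM values for 24956 genes, rounded to 2 decimals, were deposited by the authors, and each column was matched to its sample by title. The submitters' processing notes name CASAVA 1.8, Partek, HISAT2 2.0.4 and the build mm10. The annotation, strand setting and handling of multiply matching reads were not given in the sources used here. Depth was estimated from the step that 1 read makes in short RNA genes (at most 150 bases).

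The test was limma 3.58.1 under R 4.3.3 (mean-variance trend, two-sided) on log2(RPKM + 0.5) for genes with a mean of at least 1 RPKM, with Benjamini-Hochberg adjustment over all 10852. The pseudocount understates changes of low genes. Members and lists were chosen with earlier results of these data known. Every member is named, library values are given for core members and for the most changed in each compartment, and partner genes are named when past the test and their group means differ by a ratio of at least 5 to 4, or where few were counted. Compartments were assigned by hand. The alternatives covered pseudocount, filter, scaling, variance trend, replicate block and left-out libraries. Deviations of same-numbered libraries correlated at -0.08, -0.11 and 0.01. These values show no pairing by number but, with 3 libraries a group, cannot exclude one. Positions are from GENCODE on GRCm38, the assembly that mm10 names, and promoters from RefSeq (80 members matched).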

Additional observations from a re-analysis of the deposited data

How the results depend on the processing

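Of the 40 members that rose or fell, 25 kept their call under every one of the 15 alternatives that tested them (11 higher and 14 lower), and 0 turned direction in any. Another 15 members passed in at least 1 alternative. The cause of each shift below was not tested. Median centring gave 12 members higher and 26 lower, 0 higher in the ER, and 1 higher and 2 lower in mitochondria. It moved the medians to -0.0285 over all genes, 0.00386 in the cytosol and nucleus, -0.295 in the ER and -0.001903 in mitochondria. Quantile normalization gave 0 higher in the ER and 1 lower in mitochondria, with medians of -0.0214 over all genes, 0.0145 in the cytosol and nucleus, -0.305 in the ER and -0.0261 in mitochondria. A filter at 5 RPKM gave medians of 0.0326 over all genes and 0.0696 in the cytosol and nucleus. Without both DM-aKG replicate 1 and control replicate 2 there were 2 higher in the ER and 1 lower in mitochondria, with medians of 0.0787 in the cytosol and nucleus and -0.298 in the ER. Leaving out single libraries gave 12 to 21 members higher and 14 to 21 lower. In the ER 0 to 2 were higher and 8 to 11 lower, fewest lower without DM-aKG replicate 3. In mitochondria 1 to 3 were higher and 0 to 1 lower. The medians then ranged over 0.0378 to 0.06799 in the cytosol and nucleus, -0.305 to -0.225 in the ER and 0.00356 to 0.0694 in mitochondria (lowest without DM-aKG replicate 2 and highest without DM-aKG replicate 3).

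With the replicate number as a block, 19 members were higher and 17 lower, with 10 lower in the ER. The same number marks no shared source in the labels, and deviations of same-numbered libraries correlated at 0.01 at most. With 3 libraries a group, an exact permutation test of a single gene cannot go below p = 0.10, and the depth leaves genes such as Hspb1 at a few reads.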
